A study of Homo sapiens with 17 samples.

Results

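The genes described here are 7 serum and ERK response genes: JUN, JUNB and FOSL1, which encode subunits of the transcription factor AP-1, the immediate early genes IER2 and ARC, the ERK phosphatase gene DUSP4, and CCND1, which encodes cyclin D1. They were chosen by symbol from the 1400 genes in the union of 4 tables of the authors' own comparisons, with earlier results of these tables known. The listing of a gene and its log2 ratio are therefore descriptions, and no test was made on them. RNA came from early-passage PC3 cells, an established human prostate cancer line that does not depend on androgen, 7 days after infection. Lentivirus carried short hairpin RNA (shRNA) A or B against MED25 (3 libraries each) or, as control, an shRNA against luciferase (3 libraries). Retrovirus carried shRNA A or B against ETV4 (3 libraries each) or a control shRNA (2 libraries), although the series design text calls the control an empty vector. The shRNAs are called hairpins A and B below. No label says whether the libraries of a group came from separate cultures, and none names serum or another stimulus.

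Immediate early genes are transcribed soon after a growth signal, without new protein having to be made first. The signal passes from receptors through RAS, RAF and MEK to the kinase ERK, which acts on ETS-family factors bound beside serum response factor, and the induced JUN and FOS family proteins pair to form AP-1. MED25 is a subunit of Mediator, the complex that links activators to RNA polymerase II, and it binds ETV4, an ETS factor of the PEA3 group that is itself a target of ERK signalling and is expressed in PC3 cells.

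Each value below is a log2 ratio of knockdown over control, with 1 value per gene and hairpin and no error, because library-level values were not analysed here. The tables hold decreases of at least 1.5-fold and no increases, and the smallest listed decrease was −0.59 in all 4 tables. The smallest adjusted p score, described under processing, was 20.3 in each MED25 table and 20.1 in each ETV4 table. A gene missing from a table has no value here and cannot be called unchanged. Whether it fell short in size or in score cannot be told. With the ratios read in the direction described under processing, the targeted transcripts were lower. In the authors' deposited tables MED25 was at 51.6% of control with hairpin A and 30.5% with hairpin B, and ETV4 at 26.1% and 15.8%. The sign of the targeted genes helped to set that direction, so their decrease is not a separate check of it. Both hairpins of a target were compared with the same control libraries, so their values are not independent of each other. Differences between hairpins could not be tested.

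All 7 genes were listed as lower with at least 1 MED25 hairpin, and none was listed with either ETV4 hairpin. The share of the 1400 genes listed with at least 1 MED25 hairpin was no lower than 56.1%, the share with hairpin A. The authors' deposited table for MED25 hairpin A held 5 of the 7 (JUN, IER2, ARC, DUSP4 and CCND1), where 56.1% of the 1400 genes were listed. For MED25 hairpin B it also held 5 (JUN, JUNB, FOSL1, IER2 and ARC), where 26.7% were listed. The background shares for ETV4 were 35.4% with hairpin A, 7.00% with hairpin B and 38.3% with at least 1 of them. Of the 536 genes behind the 38.3%, only 143 were also listed with a MED25 hairpin. The 38.3% is therefore not a share of MED25-listed genes, from which all 7 come. Genes listed with at least 1 hairpin of each target, which do not share control libraries, made up 10.2% of the 1400, and 0 of the 7 were among them. The choice of the genes used these listings, so nothing is read from the counts.

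**Figure D1:**
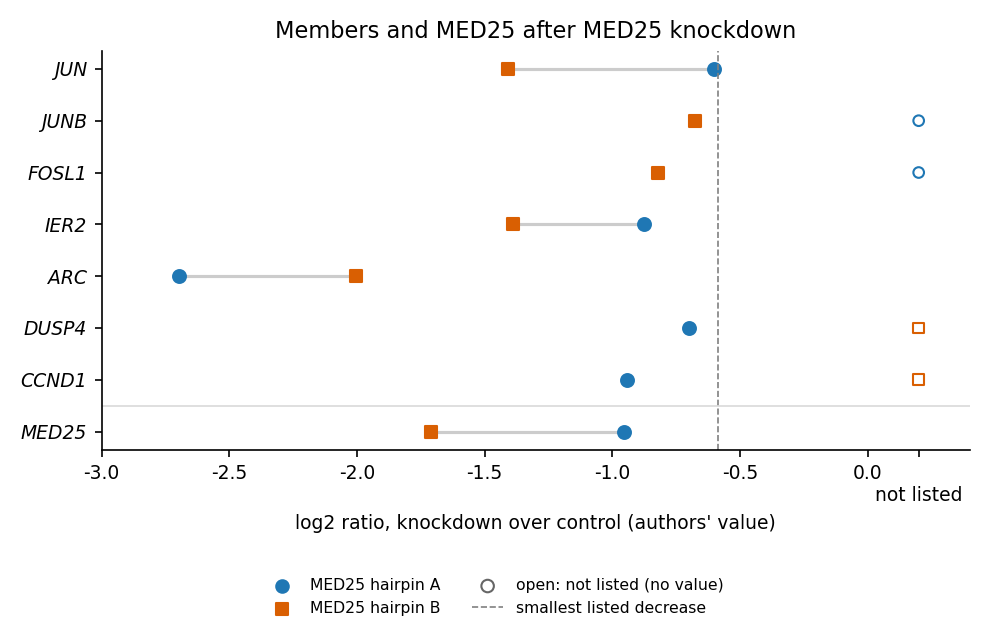
Log2 ratio of knockdown over control (horizontal axis) for the 7 genes and the targeted gene MED25 (vertical axis), as filled circles for MED25 hairpin A and filled squares for hairpin B; open symbols at the right mark genes missing from a table and have no value, and the dashed line is the smallest listed decrease. JUN and IER2 lie further left with hairpin B, as MED25 does, and ARC lies further left with hairpin A.

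JUN, the most studied AP-1 subunit, was at −0.60 with MED25 hairpin A in the authors' deposited table, or 65.9% of control. With hairpin B the authors' deposited table gave −1.41, or 37.7% of control. JUN was thus close to the smallest listed decrease with hairpin A and 2.65-fold below control with hairpin B. Ranked by decrease, it was number 736 of 786 genes with hairpin A and number 21 of 374 with hairpin B in the authors' deposited tables. Ranked by the authors' adjusted p score, which is assumed here to run higher for smaller p, JUN was number 288 and number 10.

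JUNB, a JUN relative that can take its place in AP-1, was at −0.67 with MED25 hairpin B in the authors' deposited table, or 62.7% of control. FOSL1, which encodes the FOS family protein FRA-1, was at −0.82 in the same authors' deposited table, or 56.7% of control. They ranked number 268 and number 152 of the 374 genes by decrease. Neither had a value with MED25 hairpin A. The 3 AP-1 genes listed with hairpin B were therefore ordered JUN, FOSL1 and JUNB by decrease, with no spread between libraries to say whether neighbours in that order differ.

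IER2, an immediate early gene whose protein is found in the nucleus, was at −0.87 with MED25 hairpin A (54.6% of control) and at −1.39 with hairpin B (38.2% of control) in the authors' deposited tables. It ranked number 287 of 786 and number 23 of 374, the latter close to the place of JUN. For hairpin B, JUN and IER2 were among the genes lowered most, and by score IER2 was number 21 of that table. The value with hairpin B minus that with hairpin A was −0.81 for JUN and −0.52 for IER2 on the log2 scale, beside −0.76 for MED25 itself.

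JUN, JUNB and IER2 had a promoter entry among the RefSeq sequences for build GRCh38.p14, and these are shown to set out which ETS, AP-1 and serum response letters lie next to the start sites of 3 genes that were lower together with MED25 hairpin B. FOSL1 and CCND1 had none, and the promoters of ARC and DUSP4 were left out of the search, so nothing is said about them. Positions count from the RefSeq start, with −1 the last base before it. Capitals mark every match of the motifs named below on either strand, so that GGAA on the opposite strand reads TTCC and GGGCGG reads CCGCCC. For JUN only the 30 bases from −71 to −42 are shown, because the GENCODE 29 transcript starts further upstream, at −280.
JUN (chr1:58784089-58784118, minus strand): ggggTGACATCAtgggCTATTTTTAGgggt
JUNB (chr19:12791236-12791485, plus strand): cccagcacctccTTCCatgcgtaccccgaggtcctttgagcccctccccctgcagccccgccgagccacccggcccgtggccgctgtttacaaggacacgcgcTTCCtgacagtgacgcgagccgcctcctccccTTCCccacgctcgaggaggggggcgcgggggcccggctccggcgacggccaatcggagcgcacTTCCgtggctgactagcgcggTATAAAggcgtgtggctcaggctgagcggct
IER2 (chr19:13150161-13150410, plus strand): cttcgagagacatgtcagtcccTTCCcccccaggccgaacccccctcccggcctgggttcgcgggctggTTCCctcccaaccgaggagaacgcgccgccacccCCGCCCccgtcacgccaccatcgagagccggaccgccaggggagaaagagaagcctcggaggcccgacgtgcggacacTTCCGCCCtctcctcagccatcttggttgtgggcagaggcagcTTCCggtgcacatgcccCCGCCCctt

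The ETS core GGAA was found in all 3 windows of 300 bases (250 before the start and 50 after), as it was in 95.5% of all 35116 RefSeq promoter windows. It occurred once for JUN, 4 times for JUNB and 4 times for IER2. The longer ETS octamer CCGGAAGT, held by 4.14% of all windows, was in none of the 3. The AP-1 site TGANTCA (7.71% of all windows), the cyclic AMP response element TGACGTCA (1.85%) and the CArG box, the letters bound by serum response factor (1.29%), were not in these windows either. The TATA box TATAAA (11.5% of all windows) was in that of JUNB at −31 to −26. The SP1 site GGGCGG (45.0%) was in those of JUN and IER2, and 1 match in IER2 overlaps an ETS core on the same strand. The AP-1 variant TGACATCA, at −67 to −60 of JUN and in 2.61% of all windows, and a MEF2 site, at −55 to −46 of JUN and in 2.99%, were searched after the window had been seen. Matches are letters in a reference sequence and not measured binding.

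ARC, an immediate early gene best known from neurons, where its protein acts at synapses, had the largest decrease of the 7 genes with both MED25 hairpins. The authors' deposited tables gave ARC at −2.70 with hairpin A, which is 15.4% of control, and at −2.00 with hairpin B, which is 25.0% of control. By decrease it was number 3 of 786 and number 3 of 374. Its place by score was lower, number 84 and number 66. The 2 hairpins were ordered the other way round than for JUN, IER2 and MED25 itself, with a difference of 0.69 on the log2 scale.

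DUSP4, a nuclear dual-specificity phosphatase that switches ERK off and is induced by it, was at −0.70 with MED25 hairpin A in the authors' deposited table, or 61.6% of control. CCND1, whose product drives G1 progression with CDK4 and CDK6, was at −0.94, or 52.0% of control, in the same authors' deposited table. By decrease CCND1 was number 230 and DUSP4 number 529 of 786, and by score they were number 66 and number 131. CCND1 and DUSP4 thus stood higher by score than by decrease. Neither was listed with hairpin B, whose shorter table held 374 genes, so neither has a value there.

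Counting only genes lowered at least 2-fold, ARC was left with MED25 hairpin A, 1 of the 5 listed, where 24.0% of all genes listed in that table passed that size. With hairpin B, ARC, JUN and IER2 were left, 3 of the 5 listed, where 20.1% of all listed genes passed. With the ETV4 hairpins none of the 7 was listed to begin with, and 23.2% of the genes listed with hairpin A and 20.4% of those listed with hairpin B passed. The median over all listed genes was −0.78 with hairpin A and −0.77 with hairpin B in the authors' deposited tables. JUN and DUSP4 with hairpin A, and JUNB with hairpin B, had smaller decreases than those medians.

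**Figure D2:**
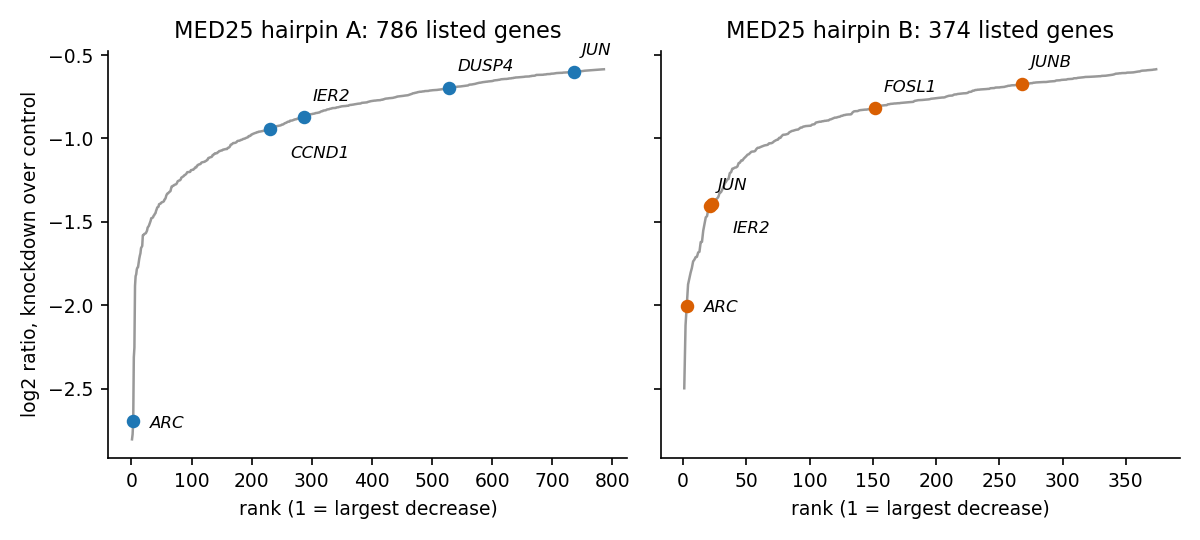
Log2 ratio of knockdown over control (vertical axis) against rank by decrease (horizontal axis) for every gene in the authors' tables for MED25 hairpin A (left, 786 genes) and hairpin B (right, 374 genes), with the listed genes of the 7 as points on the grey curve. ARC is at rank 3 in both panels, and JUN moves from rank 736 on the left to rank 21 on the right.

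Among other immediate early genes, the circadian repressor BHLHE40, the zinc-finger factors KLF4 and KLF10, MYC, PPP1R15A and GADD45B had values with both MED25 hairpins. A list of 43 immediate early genes had 13 members in the table for hairpin A, with a median of −0.88, and 14 in that for hairpin B, with a median of −0.94, in the authors' deposited tables. Without JUN, JUNB, FOSL1, IER2 and ARC, 10 of 38 were listed with hairpin A (median −0.90) and 9 of 38 with hairpin B (median −0.87). The list was drawn up with earlier results of these data known, and how many genes the authors tested has not been given in the sources used here, so no share over all tested genes stands beside these counts. The ETV4 tables held 3 of the 43 with hairpin A and 1 with hairpin B.

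BHLHE40 was at −1.21 with MED25 hairpin A and −1.35 with hairpin B in the authors' deposited tables. IER5 and IER5L, relatives of IER2, were at −0.92 and −0.77 with hairpin A and at −1.03 and −1.05 with hairpin B in the authors' deposited tables. MYC, the proliferation factor, was at −0.70 and −0.87, and the growth-arrest gene GADD45B at −0.71 and −0.82, in the authors' deposited tables. For KLF10 the authors' deposited tables gave −0.80 and −1.02. These 6 genes had the larger decrease with hairpin B, as JUN and IER2 did. KLF4 was at −1.11 and −0.78, and PPP1R15A, a phosphatase subunit of the stress response, at −0.99 and −0.76 in the authors' deposited tables, so that both had the larger decrease with hairpin A, as ARC did. FOS, FOSB, EGR1 and NR4A1, classic immediate early genes picked for mention because they were missing, were in none of the 4 tables.

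**Figure D3:**
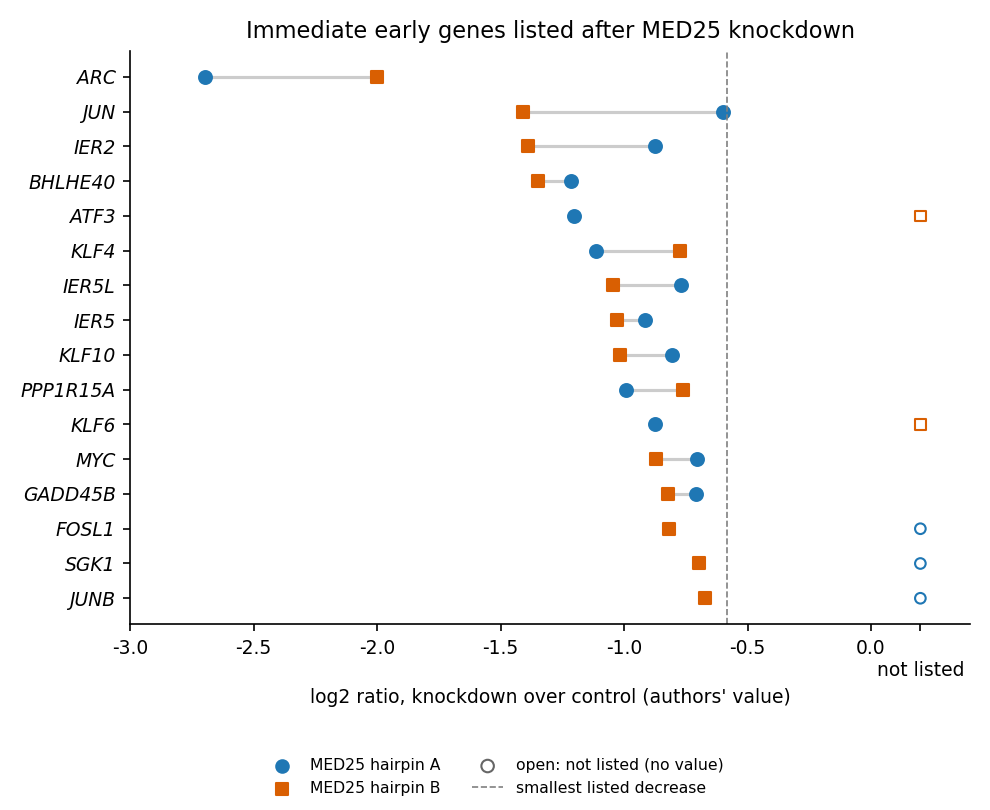
Log2 ratio of knockdown over control (horizontal axis) for the immediate early genes listed with either MED25 hairpin (vertical axis, ordered by the larger decrease), with circles for hairpin A, squares for hairpin B, open symbols for genes missing from a table and a dashed line at the smallest listed decrease. ARC, at −2.70 and −2.00, lies apart on the left, followed by JUN and IER2 with hairpin B at −1.41 and −1.39.

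Other AP-1 genes were listed with hairpin A. In a list of 17 AP-1 factors, 3 were listed with MED25 hairpin A, 3 with hairpin B, 1 with ETV4 hairpin A and 0 with ETV4 hairpin B. The 3 with MED25 hairpin B were JUN, FOSL1 and JUNB. Those with hairpin A were JUN and 2 factors of the ATF and JDP branch, JDP2 at −1.45 and ATF3 at −1.20 in the authors' deposited table. JDP2, which can repress AP-1 sites, was also at −1.07 with ETV4 hairpin A in the authors' deposited table. None of FOS, FOSB, FOSL2 and JUND, the closest relatives of the 3 AP-1 genes described, was listed.

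Of 28 genes of ERK output and feedback, 6 were listed with MED25 hairpin A (median −0.79) and 8 with hairpin B (median −0.78) in the authors' deposited tables. CCND1 and DUSP4 were among the 6 and FOSL1 among the 8. PHLDA1 was at −0.89 with hairpin A and −0.74 with hairpin B in the authors' deposited tables. The receptor gene EPHA2 was at −0.88 with hairpin A, and the chromatin protein gene HMGA1 at −1.17 with hairpin B, in the authors' deposited tables. With ETV4 hairpin A, 3 of the 28 were listed, ETV4 itself and the ERK inhibitors SPRY4 at −1.08 and SPRY1 at −0.67, in the authors' deposited table. ETV4 was the only gene of the 28 listed with ETV4 hairpin B.

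Of 10 dual-specificity phosphatases, DUSP4 was the only one listed with MED25 hairpin A. DUSP9 at −0.86 and DUSP5 at −0.80 were listed with MED25 hairpin B, and DUSP8 at −0.73 with ETV4 hairpin A, in the authors' deposited tables. Each of these 4 phosphatase genes was in 1 table only. Of 17 G1 cyclins, kinases and inhibitors, 3 were listed with MED25 hairpin A, namely CCND1, the kinase inhibitor CDKN2B at −1.46 and E2F1 at −0.61 in the authors' deposited table. CDKN2B was also at −1.22 with ETV4 hairpin A, and CDK6, a kinase partner of cyclin D1, at −1.10 with ETV4 hairpin B, in the authors' deposited tables. With MED25 hairpin B, 0 of the 17 were listed.

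Upstream of the 7 genes, none of 18 genes of the RAS, RAF, MEK and ERK chain and none of 7 serum response factor genes was in any table. Among 12 EGFR ligands and receptors, which feed this chain, AREG at −1.32 and BTC at −0.63 were listed with MED25 hairpin A in the authors' deposited table. Other EGFR ligands were listed for ETV4, EREG at −0.70 with hairpin A and HBEGF at −0.73 and EPGN at −0.64 with hairpin B, in the authors' deposited tables. Downstream, a list of 14 proteases and inhibitors known as AP-1 and ETS targets had MMP3 at −1.50 with MED25 hairpin A in the authors' deposited table. MMP3 at −0.73 and MMP1 at −1.18 were listed with ETV4 hairpin A in the authors' deposited table. There MMP3 had a score of 20.2, close to the lowest of that table, 20.1, and MMP1 had 233.

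The immediate early genes KLF4 and IER5 were, unlike the 7 genes, also listed for ETV4. With ETV4 hairpin A they were at −0.66 and −0.80, and the secreted matrix-associated factor gene CTGF was at −0.77, in the authors' deposited table. HBEGF was the only gene of the immediate early list in the table for ETV4 hairpin B.

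**Figure D4:**
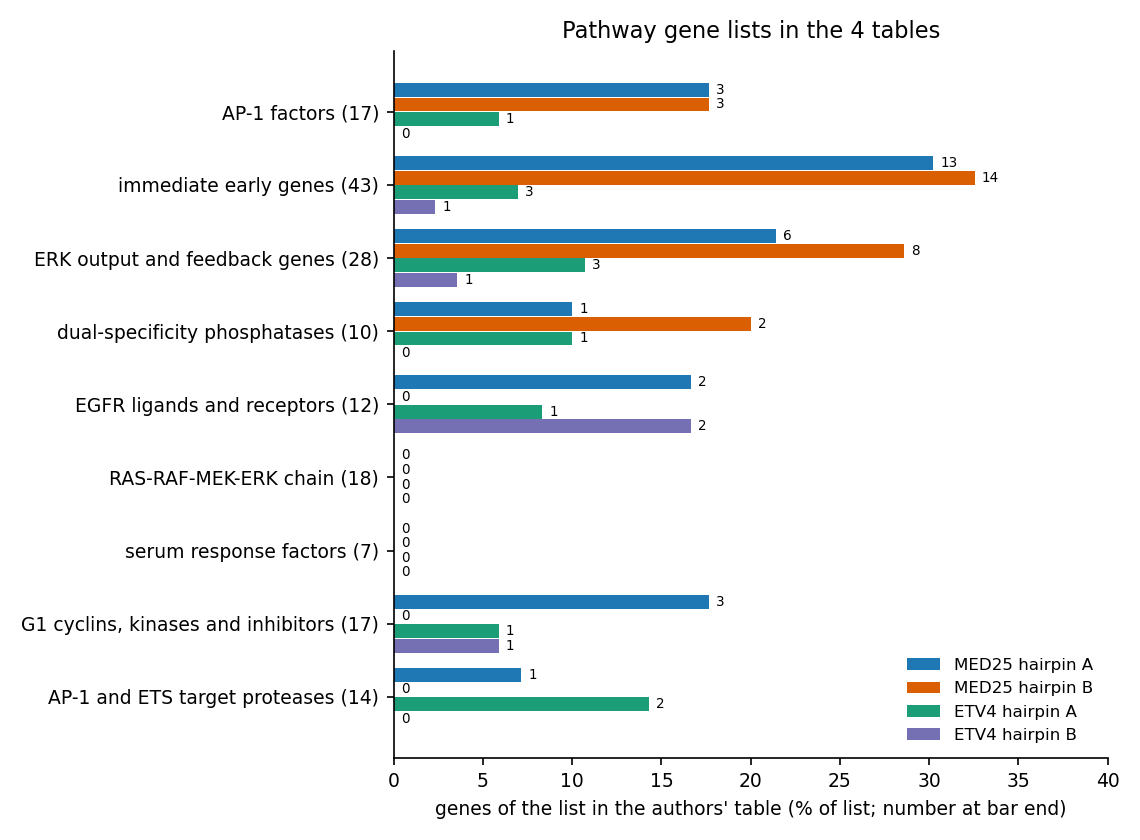
Share of each pathway gene list that is in the authors' table (horizontal axis, percent of the list, starting at 0) for the 9 lists (vertical axis, number of genes in brackets), with 1 bar per hairpin and the number of listed genes at its end. The immediate early list has 13 and 14 genes with the MED25 hairpins and 3 and 1 with the ETV4 hairpins, and the tables differ in length from 98 to 786 genes.

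JUN, IER2 and ARC were in both MED25 tables and in neither ETV4 table, as were 124 other genes. Among these, the genes with log2 ratios closest to those of IER2 were TH, tyrosine hydroxylase, at a Euclidean distance of 0.03 over the 2 tables, and PEX5L, at 0.03. Closest to JUN were the endothelial receptor gene ROBO4, at a distance of 0.08, and the clone-named transcript RP5-907D15.2, at 0.20. For ARC the closest were the small heat shock protein gene CRYAB, at a distance of 0.46, and the inducible HSP70 gene HSPA6, at 1.06. Over all 152 other genes in both MED25 tables, whether or not listed for ETV4, a search added after the data were seen, the closest to ARC was the RNA-binding protein gene IGF2BP1, at a distance of 0.15, and those closest to IER2 and JUN were as above.

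The 7 genes are short and their principal transcripts have few exons in GENCODE 29, a property that the choice did not use. The principal transcripts of JUN, JUNB and IER2 have 1 exon, that of ARC has 3, those of FOSL1 and DUSP4 have 4, and that of CCND1 has 5. For IER2 this transcript has 2934 bases within a gene span of 4494. Genes with a single-exon principal transcript make up 4.01% of the 1222 protein-coding genes in the union of the tables that have a principal transcript. They make up 5.95% of all 19650 such genes. The median gene span is 4494 bases for the 7 genes, from 1820 for JUNB to 17605 for DUSP4, against 30985 for the listed protein-coding genes. Each of the 7 spans under 20 kb, a limit set after the spans were seen, as do 38.2% of the listed protein-coding genes. The AU-rich pentamer ATTTA, known from unstable transcripts, occurs in the 3′ untranslated region of 5 of the 7 (not in IER2 and ARC), close to the 70.2% of listed protein-coding genes with such a region. By chromosome, JUN lies on 1, JUNB and IER2 on 19, FOSL1 and CCND1 on 11, and ARC and DUSP4 on 8.

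**Figure D5:**
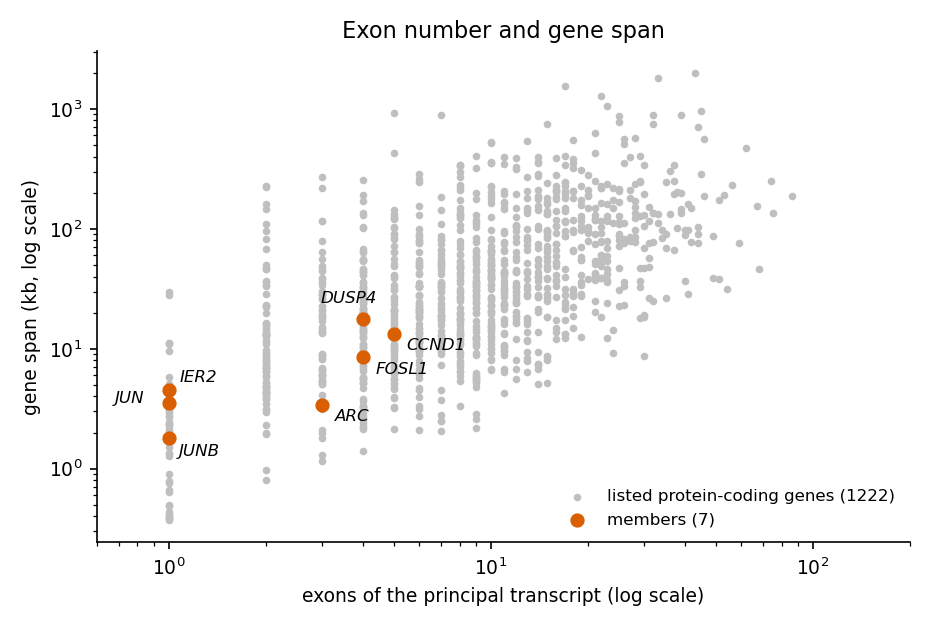
Gene span in kb (vertical axis, log scale) against the number of exons of the principal transcript (horizontal axis, log scale) in GENCODE 29, with the 7 genes as labelled orange points and the 1222 protein-coding genes in the authors' tables as grey points. The 7 genes lie at the lower left, with 1 to 5 exons.

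Genes on the opposite strand overlap 3 of the 7, and the authors' use of strand in counting has not been given in the sources used here. HOOK2 spans all 1820 bases of JUNB, AC011446.2 overlaps IER2 over 1123 bases and LTO1 overlaps CCND1 over 1399 bases. None of these partners was in any of the 4 tables. These overlaps are of whole gene spans, and whether exons overlap was not examined. If reads were counted without strand, partner reads from shared exon bases could not be told apart from those of JUNB, IER2 and CCND1. The values of these 3 genes, for IER2 with both MED25 hairpins, may therefore be less certain than the rest.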

How the data were processed

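Each of the 4 deposited tables gives 1 comparison of an shRNA with its control. The submitters' processing notes name Novoalign 3.08.02 and the build hg19. The counting, scaling and test were not given in the sources used here, and library depth is unknown. Per the file headers, the authors deposited a log2 ratio and an adjusted p for each gene. The second is on a scale not given in the sources used here and was treated as a score deposited by the authors, used only to rank and filter, on the assumption that it runs higher for smaller p. Ratios were read as first over second library number, with the number shared by a target's tables as control, so MED25 ratios were turned round. The sign of the targeted genes helped to set this reading.

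The 7 genes and the 9 pathway lists were chosen with earlier results of these data known. A gene of the protease list is not reported here and was left out of the list. Genes named are the 7, list members in both tables of a target or in tables of both targets, the 3 largest decreases per list and table, the 2 nearest genes for each of the 7 in at least 2 tables, and the targets. Genes in no table, those overlapping the 7 and IGF2BP1 were named outside this rule, after the data were seen. Counts, medians and ranks were computed with Python 3.11.15, pandas 2.3.3 and numpy 2.4.6, after the code had been tested on simulated data. Of the 1400 genes, 1350 matched GENCODE release 29 (GRCh38) by Ensembl identifier. The principal transcript is that of best APPRIS rank, then longest coding part. Promoter windows are RefSeq's, on GRCh38.p14. Alternatives were a 2-fold minimum, a score of at least 50, matching by identifier, lists without the 7 genes, other rankings and a shorter window.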

Additional observations from a re-analysis of the deposited data

How the results depend on the processing

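Counts depended mainly on the minimum size of decrease. With a 2-fold minimum, the 7 genes gave 1 listed with MED25 hairpin A and 3 with hairpin B, in place of 5 each. All lists together then gave 8, 8, 5 and 2 genes with the A and B hairpins of MED25 and then of ETV4, in place of 24, 21, 12 and 4, and the immediate early list 4, 7, 0 and 0, in place of 13, 14, 3 and 1. This follows from fewer genes passing. For the ETV4 hairpins, the counts of all lists together include ETV4 itself, the targeted gene, with and without the 2-fold minimum. Without the 7 genes the immediate early list fell from 14 to 9 with MED25 hairpin B. A score of at least 50 and matching by Ensembl identifier left the counts of the 7 genes at 5, 5, 0 and 0. Of the list genes named above, JDP2, ATF3, IER5L, AREG, BTC and E2F1 with MED25 hairpin A scored below 50. So did KLF4, PPP1R15A and DUSP9 with MED25 hairpin B, DUSP8, EREG and MMP3 with ETV4 hairpin A, and EPGN with ETV4 hairpin B. No setting listed any of the 7 with both targets. Of 32 counts of single lists, 11 fell by over 1.5 times with the 2-fold minimum, 7 with the score minimum and 2 without the 7 genes. Many of the 32 were 0 from the start and could not fall, among them all counts of the RAS chain and serum response factor lists. Ranking by score moved 8 of 10 ranks by over 1.5 times, 6 to a higher place and 2 to a lower one. No paired analysis was possible because the tables hold 1 value per gene and comparison. For the same reason no replicate could be left out, no spread computed and no limit of depth given.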
